A study of Homo sapiens with 4 samples.

Results

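The nuclear pore complex genes described here encode the proteins of the channel through which RNA and protein cross the nuclear envelope, together with a few enzymes that work at it. They were taken from a list of 34 genes, and 30 of them were among the 16634 genes with a value in these arrays. A gene had a value when at least 2 probe sets of the array carried its symbol and no other. NUP85 had 1 such probe set, and NUP188, NUP205 and SENP2, which had none, were not analysed here. The cells were A2780/SRSF3si2, a line made from the ovarian cancer line A2780 in which doxycycline (Doxy) switches on an siRNA against the splicing factor SRSF3 through a lentiviral vector with the tTR/KRAB repressor. RNA of cells given 0.1 μg/ml Doxy for 3 days was compared with RNA of cells given none (No Doxy), with 2 exon arrays in each group. Both groups carried the vector, and no line with a control siRNA was analysed here, so an effect of Doxy itself and one of the siRNA cannot be told apart. No source says that a group's 2 arrays stem from different cultures, and p-values may therefore reflect technical spread alone.

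The pore is built from many kinds of nucleoporin in repeated copies. An outer ring on either face, the Y complex, is anchored through an inner ring and a membrane ring, and the central channel is filled by nucleoporins with phenylalanine-glycine repeats. Filaments on the cytoplasmic side and a basket on the nuclear side serve the export of mRNA and the docking of transport receptors, whose direction is set by the small GTPase Ran. Pores are taken apart and rebuilt when human cells divide, and several Y complex members sit at kinetochores during mitosis.

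All values are RMA signals on the log2 scale, and the value of a gene is the mean over its probe sets. SRSF3, the target of the siRNA, measured 8.50 and 8.33 without Doxy and 7.84 and 7.97 with it, a difference of -0.51 (SE 0.18) that did not pass limma's test (adjusted p = 0.129). It was -0.67 and passed with the arrays centred on their medians (adjusted p = 0.0376), passed after quantile normalization (0.0462), and was -0.21 with the median of its probe sets (0.710). The study itself reported robust suppression of SRSF3 in this line by RT-PCR, qPCR and western blotting. Those measures differ from a mean over array probe sets. Array medians ran from 5.09 to 5.44, and Doxy replicate 2 had the highest. Arrays correlated at r = 0.987 and 0.988 within groups and at 0.969 to 0.972 between groups. Among 10 ovarian epithelial markers EPCAM (difference 2.10) and CDH1 (0.93) rose, with signals of 3.32 to 4.19 without Doxy. KRT18 (0.55), FOLR1 (0.29) and PAX8 (0.28) lay higher in both Doxy arrays and did not pass. KRT19 (-0.81, over 2 probe sets) and KRT8 (-0.38) lay lower in both and did not pass either. At an unadjusted p under 0.05 were 4 of the 10, EPCAM, CDH1, KRT18 and KRT19. None of 7 leukocyte or 8 endothelial markers passed the test (0 and 1 at an unadjusted p under 0.05). Of 10 fibroblast markers LUM rose (0.79) and ACTA2 fell (-1.62). At an unadjusted p under 0.05 were 4, these and COL3A1 (-0.65) and PDGFRB (0.47), which did not pass. The brightest without Doxy were COL3A1 (mean 9.51), DCN (9.25) and LUM (8.44), and the dimmest was FAP (2.21). The part of these markers in the results was not tested.

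Of the 30 nuclear pore genes, 1 rose and 1 fell with Doxy at an adjusted p under 0.05. NUP88 was the one that rose, against 5.67% of all genes, and NUP37 the one that fell, against 1.7% of all genes, so the counts were near the background in both directions. With each array centred on its own median the background was 5.51% and 5.75%. The same 2 genes were past 2-fold at an unadjusted p under 0.05, cutoffs of the size the study used for its lists, which 3.02% of all genes passed upwards and 1.06% downwards. At an unadjusted p under 0.05 alone there were 6 members, NUP88, NUP42, NUP54 and NUP133 with higher and NUP37 and NUP107 with lower values with Doxy, that is 6 of 30 where 23.1% of all genes were at such a p. The median difference over the 30 genes was 0.15, beside 0.03 over all genes, and single differences ran from -1.56 to 1.11 with SEs of 0.17 to 0.38. The difference lay above 0 for 18 members and below 0 for 12, which became 13 and 17 once each array was centred on its own median, a step that lowered every difference by 0.16. For 22 of the 30 members the 95% interval of the difference lay within 1 log2 unit of 0 on either side, as it did for 79.3% of all genes.

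**Figure D1:**
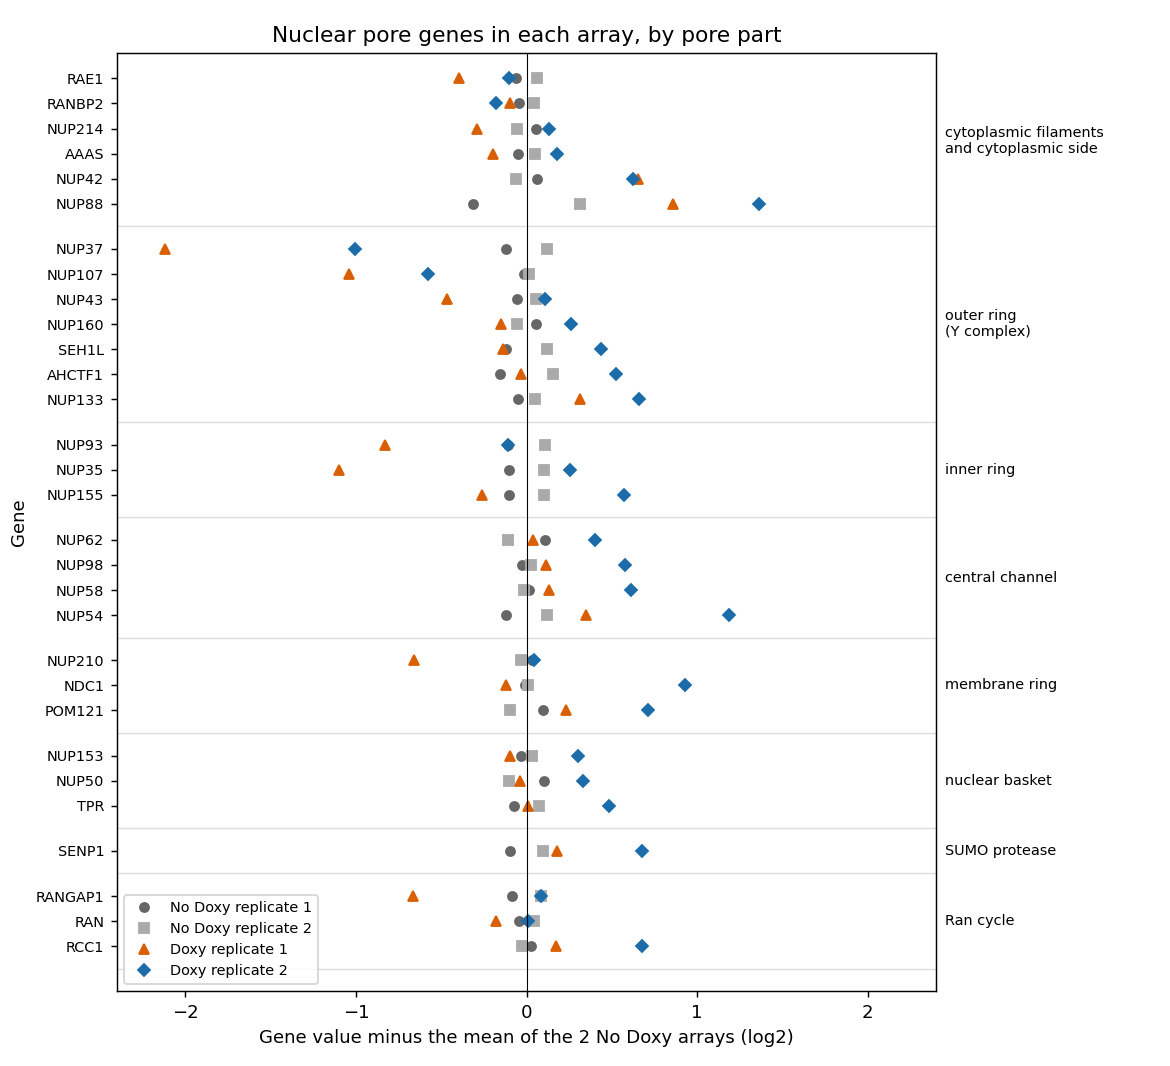
Gene value minus the mean of the 2 No Doxy arrays (log2) for the 30 nuclear pore genes in each of the 4 arrays, grouped by pore part. Each point is 1 array. NUP37 and NUP107 lie lower in both Doxy arrays, NUP88 and NUP42 lie higher in both, and many others have Doxy replicate 1 and Doxy replicate 2 on opposite sides of the No Doxy arrays.

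The promoters of NUP88, NUP37 and NUP107 are shown because these were the 3 members with the smallest p. Each runs from 250 bases before to 50 bases after the annotated start, 5′ to 3′ on the strand of the gene, from RefSeq (GRCh38.p14). The positions are chr17:5419613-5419912 on the minus strand for NUP88, chr12:102120065-102120364 on the minus strand for NUP37 and chr12:68686728-68687027 on the plus strand for NUP107. Capitals mark matches on either strand to 3 letter patterns: the CHR element of cell cycle genes (TTTGAA), the CCAAT box (CCAAT) and an E2F site (TTTGGCGC or TTTCCCGC).
NUP88: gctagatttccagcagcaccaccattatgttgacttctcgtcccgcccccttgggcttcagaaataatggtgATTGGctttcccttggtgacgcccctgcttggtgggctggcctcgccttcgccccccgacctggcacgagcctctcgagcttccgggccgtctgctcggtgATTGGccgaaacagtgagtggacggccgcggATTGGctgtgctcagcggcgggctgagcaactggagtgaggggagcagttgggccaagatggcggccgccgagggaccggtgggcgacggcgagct
NUP37: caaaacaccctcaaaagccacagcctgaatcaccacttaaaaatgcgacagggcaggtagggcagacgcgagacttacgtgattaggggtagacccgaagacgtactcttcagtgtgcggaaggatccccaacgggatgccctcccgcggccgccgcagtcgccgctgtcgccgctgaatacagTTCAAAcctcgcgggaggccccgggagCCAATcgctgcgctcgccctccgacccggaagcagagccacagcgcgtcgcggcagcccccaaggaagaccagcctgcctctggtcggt
NUP107: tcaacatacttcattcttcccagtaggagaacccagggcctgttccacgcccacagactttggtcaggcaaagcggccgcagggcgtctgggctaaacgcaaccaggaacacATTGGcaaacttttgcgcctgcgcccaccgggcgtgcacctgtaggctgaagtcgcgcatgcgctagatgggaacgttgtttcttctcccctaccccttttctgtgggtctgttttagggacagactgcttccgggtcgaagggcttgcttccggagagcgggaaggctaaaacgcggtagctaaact
The NUP88 window held 3 CCAAT matches, all on the opposite strand, the NUP37 window 1 CHR and 1 CCAAT match, and the NUP107 window 1 CCAAT match. Of the 28 members with a promoter in the table, 9 (32.1%) held the CHR letters, beside 18.2% of 27305 genes. A member with several annotated starts counted when any of its windows matched, so these are shares of genes and not of windows. In NUP50, RANGAP1 and NUP93 only some of the windows held the CHR letters. The CCAAT letters were in 9 members (32.1%), beside 39.7% of genes, and the E2F letters in 1 member, NUP155 (3.57%), beside 2.75%. These matches describe letters in a window of 300 bases, and binding was not measured.

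On the cytoplasmic side of the pore, NUP88 and NUP42 lay higher with Doxy and the other 4 genes differed by -0.25 to -0.01. NUP88 partners NUP214 and takes part in export through CRM1. Its signal was 6.90 and 7.52 in the No Doxy arrays and 8.07 and 8.57 in the Doxy arrays. Both Doxy arrays exceeded both No Doxy arrays, although the No Doxy arrays also differed from each other (SD 0.44, n = 2). The difference was 1.11 (SE 0.26, 95% interval 0.50 to 1.72, adjusted p = 0.0446 by limma). Without either No Doxy array limma called no gene at all of the 16634 (3079 without replicate 1 and 2571 without replicate 2 at an unadjusted p under 0.05), so such a fit says nothing about a single gene. Without Doxy replicate 1 the difference was 1.36 (adjusted p = 0.0575) and without Doxy replicate 2 it was 0.86 (0.205), neither past the threshold, and with the median of the 19 probe sets in place of their mean it was 1.06 (0.166).

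NUP42, listed on the array under its older symbol NUPL2, works with GLE1 in the release of mRNA on the cytoplasmic face. It measured 6.04 and 5.92 without Doxy and 6.63 and 6.61 with it. The Doxy arrays were higher and 0.03 apart, and the difference of 0.64 (SE 0.17) narrowly missed the threshold (adjusted p = 0.0643). RANBP2, the large SUMO ligase of the filaments, had a difference of -0.14 over 22 probe sets of its own, with 19 more probe sets shared with other symbols and left out. NUP214 (-0.08), the mRNA export factor RAE1 (-0.25) and AAAS (-0.01), the gene of triple A syndrome, did not pass the test either.

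In the outer ring, NUP37 fell, NUP107 lay lower and NUP133 higher, and the remaining 4 measured genes differed by -0.18 to 0.25. NUP37 is a small beta-propeller protein at the side of the Y complex in human cells. It had 7.76 and 8.01 without Doxy and 5.77 and 6.88 with it. Both Doxy arrays were below both No Doxy arrays, and the Doxy arrays were 1.11 apart. The difference of -1.56 (SE 0.33, 95% interval -2.33 to -0.79, adjusted p = 0.0325) was the lowest of any member. It was -2.12 in Doxy replicate 1 and -1.003 in Doxy replicate 2, each against the No Doxy mean. The call held without Doxy replicate 2 (adjusted p = 0.0274) and ended without Doxy replicate 1 (0.0588). With the median of its probe sets the difference was -1.52 and missed the threshold (0.0782).

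NUP107 forms the stem of the Y with NUP133. Its signal was 7.67 and 7.71 without Doxy, and 6.65 and 7.12 with it. Both Doxy arrays were below both No Doxy arrays, and the difference was -0.81 (SE 0.21, adjusted p = 0.0548). With the arrays centred on their medians the difference became -0.97 and passed (adjusted p = 0.00319, where 5.75% of all genes passed downwards). It also passed after quantile normalization (0.0172, beside 3.66% of all genes). With the median of its probe sets it was -0.86 and did not pass (0.123). Nor did it pass with median polish (0.0639) or with dim probe sets left out (0.0651). It was -0.58 without Doxy replicate 1 and -1.04 without Doxy replicate 2. NUP133 measured 7.30 and 7.39 without and 7.66 and 8.001 with Doxy, a difference of 0.49 (SE 0.19, adjusted p = 0.176), so the 2 stem partners lay on opposite sides of their No Doxy arrays. NUP160 (0.05), NUP43 (-0.18), SEH1L (0.15) and AHCTF1 (0.25), which tethers the complex to chromatin and is also called ELYS, overlapped between the groups. The single NUP85 probe set read 7.49 and 7.61 without Doxy and 7.69 and 8.40 with it, a difference of 0.50.

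**Figure D2:**
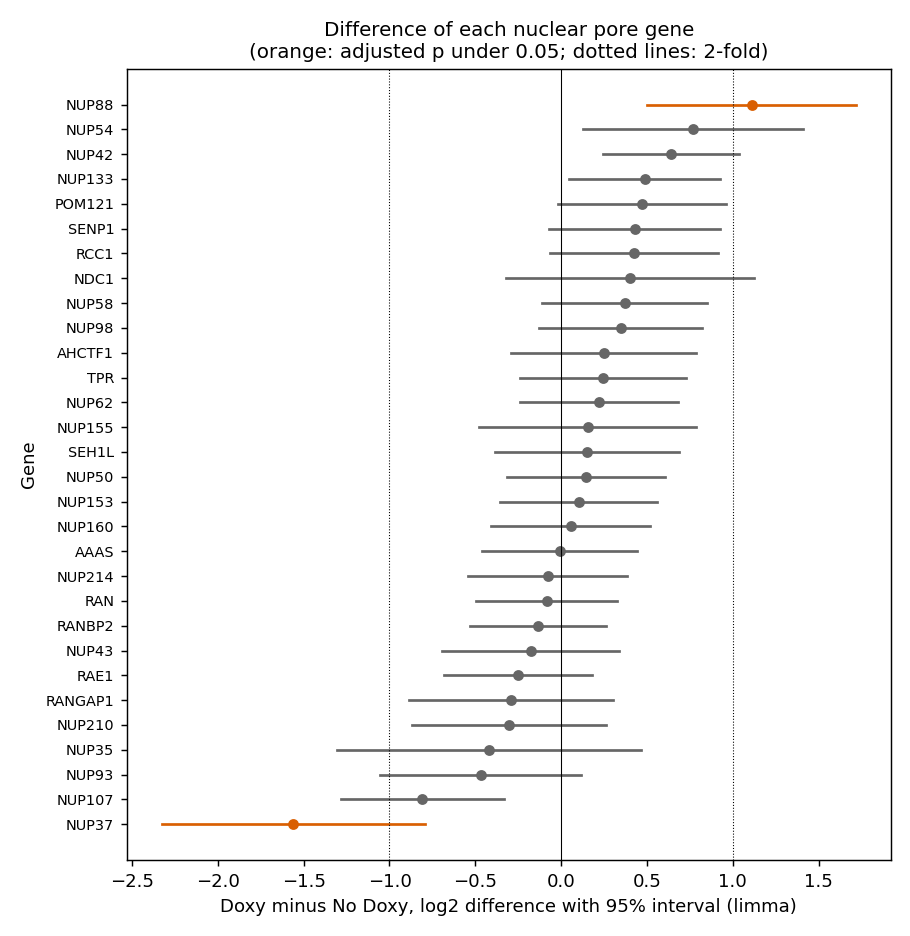
Doxy minus No Doxy (log2) for each of the 30 nuclear pore genes in order of the difference, with 95% intervals from limma (n = 2 arrays a group). The intervals of NUP88, NUP42, NUP54 and NUP133 lie above 0, those of NUP37 and NUP107 below 0, and the remaining intervals cross 0.

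Among the inner ring scaffold genes, 3 of 5 were measured and none passed the test. NUP93, the central organiser of this ring, had 8.49 and 8.71 without Doxy and 7.77 and 8.49 with it (difference -0.47, SE 0.25, adjusted p = 0.329). Only Doxy replicate 1 was clearly below the No Doxy arrays. NUP35, which binds NUP93 and the membrane, read 6.10 and 6.31 without Doxy and 5.10 and 6.46 with it, so that the Doxy arrays were 1.36 apart and lay on either side of the others. NUP155 had a difference of 0.15, which became -0.01 after centring.

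The 4 central channel genes had differences above 0, before and after centring, and none passed the test (1 of 4 at an unadjusted p under 0.05, beside 23.1% of all genes). NUP54 measured 6.22 and 6.46 without Doxy and 6.69 and 7.53 with it. Both Doxy arrays were higher, replicate 2 by 1.19 and replicate 1 by 0.35, and the difference was 0.77 (SE 0.28, adjusted p = 0.143). With Doxy replicate 1 left out, where 1 Doxy array is assumed to vary like the No Doxy arrays, it was 1.19 (adjusted p = 0.0454), and with Doxy replicate 2 left out it was 0.35 (0.508). Its channel partners NUP58, listed as NUPL1 (0.37), and NUP62 (0.22), and NUP98 (0.35), the mobile nucleoporin known from leukaemia fusion genes, were above 0 by less.

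The membrane ring genes span the nuclear envelope where its inner and outer membranes meet. POM121 had 6.70 and 6.51 without Doxy and 6.84 and 7.32 with it (difference 0.47, SE 0.21, adjusted p = 0.234), over 27 probe sets of its own and without 11 shared with other symbols, since POM121C is a near copy. NDC1 read 7.11 and 7.13 without Doxy and 7.001 and 8.05 with it, and NUP210 had a difference of -0.31. All 3 were higher in Doxy replicate 2 than in replicate 1, by 0.48 to 1.05.

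In the nuclear basket, TPR, its main filament protein, had 8.43 and 8.57 without Doxy and 8.51 and 8.98 with it (difference 0.24, SE 0.21, adjusted p = 0.569). NUP153 (0.10) and NUP50 (0.15) were closer to 0, and both crossed it after centring, to -0.06 and -0.02. SENP1, a SUMO protease held at the pore, measured 6.54 and 6.73 without Doxy and 6.81 and 7.32 with it (0.43, SE 0.22, adjusted p = 0.291).

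None of the Ran cycle genes passed the test. RCC1, the exchange factor that loads Ran with GTP on chromatin, measured 6.51 and 6.46 without Doxy and 6.65 and 7.16 with it (0.42, SE 0.21, adjusted p = 0.285). RAN itself read 8.72 and 8.81 without and 8.59 and 8.78 with Doxy (-0.08), and RANGAP1, the activating protein on the cytoplasmic filaments, differed by -0.29, with -0.67 in Doxy replicate 1 and 0.08 in Doxy replicate 2. Over parts, the median difference ran from -0.42 in the inner ring and -0.08 in the Ran cycle, through -0.04 on the cytoplasmic side and 0.05 in the outer ring, to 0.15 in the basket, 0.36 in the channel and 0.40 in the membrane ring, with SENP1, the only measured gene of its part, at 0.43. Without Doxy replicate 1 the inner ring median was 0.26, the cytoplasmic 0.15, the channel 0.59 and the membrane ring 0.71, and without Doxy replicate 2 the channel was 0.12 and the membrane ring -0.12. Parts of 3 to 7 measured genes with gaps of this size between Doxy arrays cannot be ordered by these medians.

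The 2 Doxy arrays stood apart from each other over the nuclear pore genes. Of the 30 members, 28 were higher in Doxy replicate 2 than in replicate 1, all but RANBP2 and NUP42, where 61.7% of all genes were. The median gap was 0.48, beside 0.08 over all genes. Related lists had such a gap too: 6 of 6 importins alpha (median 0.44), 10 of 11 importins beta (0.31) and 7 of 8 exportins (0.38). So had 10 of 11 other pore and Ran partners (0.47) and 13 of 14 lamina and envelope genes (0.38). Among markers, 3 of 10 epithelial, 1 of 7 leukocyte, 5 of 10 fibroblast and 4 of 8 endothelial genes were higher in replicate 2. Doxy replicate 1 lay below both No Doxy arrays in 17 members and above both in 9, against 35.1% and 38.2% of all genes. Doxy replicate 2 lay below both in 4 and above both in 23, against 31.2% and 45.1% of all genes. The median member difference was -0.11 in Doxy replicate 1 and 0.37 in Doxy replicate 2, and 14 members were below the No Doxy mean in the one and above it in the other. Averaged over the 30 members, the signal was 7.32 and 7.40 without Doxy, and with Doxy it was 7.16 in replicate 1 and 7.70 in replicate 2. The highest and the lowest mean were thus both Doxy arrays. Over all probe sets used, the array median was 5.23 in Doxy replicate 1 and 5.44 in Doxy replicate 2.

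**Figure D3:**
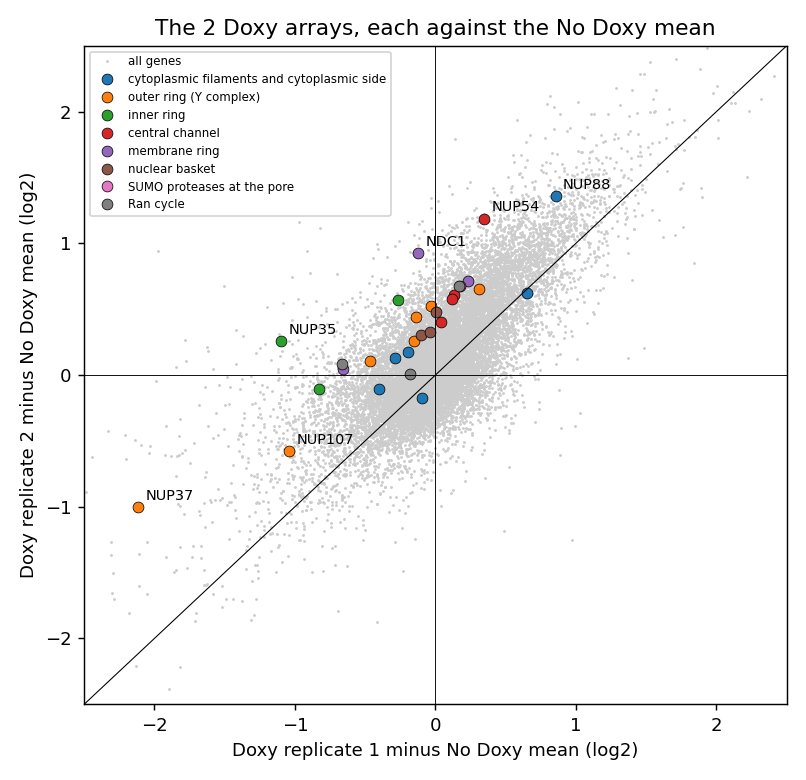
Each Doxy array minus the No Doxy mean (log2), Doxy replicate 1 on the horizontal and Doxy replicate 2 on the vertical axis; grey points are all genes (21 lie outside the axes) and coloured points the 30 nuclear pore genes. All nuclear pore genes but RANBP2 and NUP42 lie above the diagonal of equal values, and 14 lie left of 0 and above 0 at once.

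In 11 members both Doxy arrays were above the No Doxy mean, and in 5 both were below it. Both Doxy arrays exceeded both No Doxy arrays in 9 members (30.5% of all genes) and were below both in 4 (21.8% of all genes), namely NUP37, NUP107, RAE1 and RANBP2. Genes of the G2 and M phases of the cell cycle moved with the split between the Doxy arrays. The mean of 25 such genes (of 26 named) was 6.91 and 7.23 without Doxy, and with it 5.86 in replicate 1 and 7.09 in replicate 2. Doxy replicate 1 lay under both untreated arrays in 23 of them and Doxy replicate 2 in 9. Their median difference was -1.35 in the former and -0.02 in the latter, limma called 0 of the 25 (8 at an unadjusted p under 0.05, beside 23.1% of all genes), and their part in the values of the nuclear pore genes was not tested.

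A probe set of this array targets an exon or part of one, and the changes of NUP37, NUP107 and NUP88 were shared by most of their probe sets. In NUP37, 10 of 11 probe sets had both Doxy arrays below both No Doxy arrays, which held for 19.0% of all probe sets, with differences of -2.45 to -0.30. The exception was a dim one at 2.06 without and 1.75 with Doxy. In NUP107, 23 of 29 were below without overlap and 26 had a negative difference. In NUP88, 18 of 19 had both Doxy arrays above both No Doxy arrays, beside 26.4% of all probe sets, with differences of 0.45 to 2.33. Probe sets of 1 gene share the same 4 arrays and are no replicates.

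**Figure D4:**
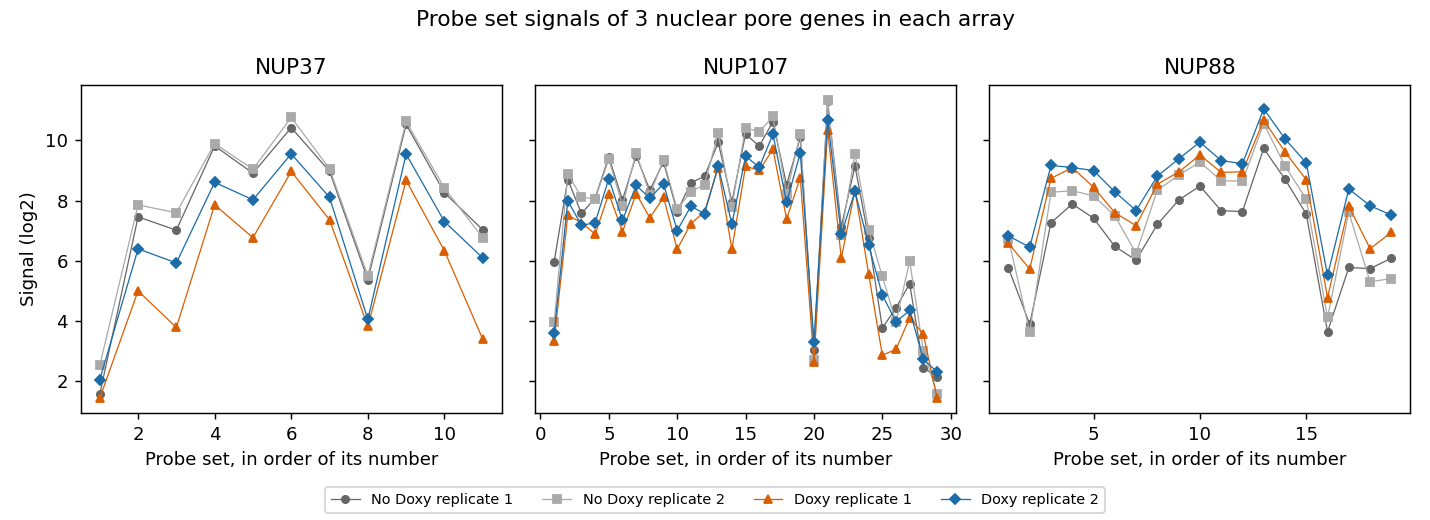
Signal (log2) of each probe set of NUP37, NUP107 and NUP88 in order of its number, with 1 line per array. The Doxy lines run below the No Doxy lines in NUP37, its dim first probe set apart, and in most of NUP107, lower in replicate 1 than in replicate 2, and above them in NUP88.

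NUP42 had 8 of 11 probe sets higher without overlap, NUP133 had 21 of 35 and NUP54 had 10 of 16. All 25 NUP93 probe sets had a difference below 0, of -0.95 to -0.20, and 13 were below without overlap. NUP210 had 22 of 49 lower and 4 higher, and TPR 19 of 60 higher and 1 lower. NUP214 had 15 of 54 lower and 14 higher without overlap, beside a gene difference of -0.08. Of all probe sets, 19.0% were lower and 26.4% higher without overlap.

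Unequal change among probe sets of 1 gene, as a change in splicing would give, was tested with the F test of limma's diffSplice. Of the 30 members NUP98 alone passed (adjusted p = 0.000565), beside 2.46% of all genes, and at an unadjusted p under 0.05 there were 6 members, beside 13.4% of all genes. The NUP98 gene encodes a precursor that is cut into NUP98 and NUP96, the latter a Y complex member, and shorter transcripts give NUP98 alone. Its most deviating probe set, number 3359976, read 5.76 and 4.78 without Doxy and 6.68 and 7.67 with it. That is a difference of 1.91, where the median of its other probe sets was 0.14. The call was lost when the second No Doxy array (adjusted p = 0.410) or the second Doxy array (0.739) was left out, and by Simes' test (0.126).

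The 52 NUP98 probe sets fell into stretches when put in order of their numbers. The split at the middle was chosen after these values were seen, so it is given with no test. In the first 26, the mean signal was 7.05 and 7.18 without Doxy and 6.77 and 7.08 with it, with 20 differences below 0, 6 above and a median of -0.29. In the last 26, it was 6.67 and 6.64 without Doxy and 7.23 and 7.85 with it, with 25 differences above 0, 1 below and a median of 0.90. Of the last 26, 20 had both Doxy arrays above both No Doxy arrays, and 11 differences were over 1. The gene mean of 0.35 thus averaged a stretch near or below 0 with one well above it. Where the probe sets lie in the gene was not analysed here, so neither stretch can be assigned to NUP98 or NUP96 sequence.

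**Figure D5:**
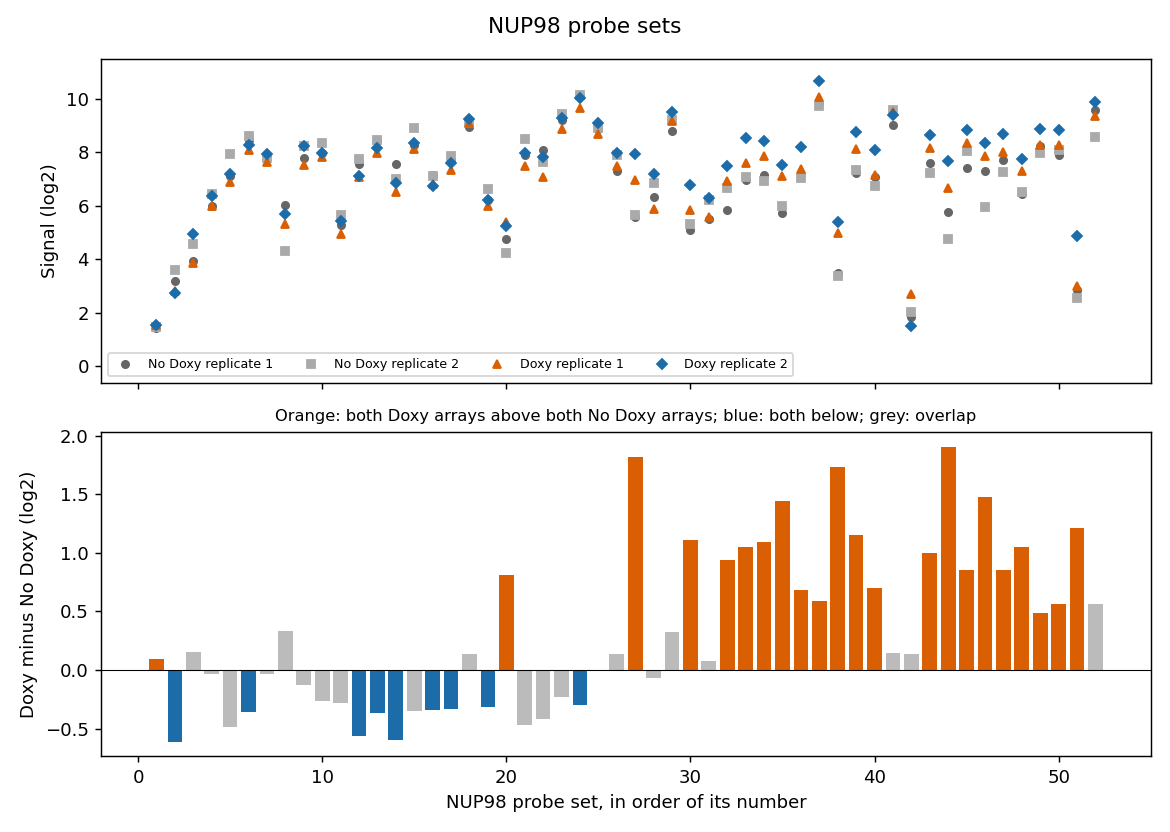
The 52 NUP98 probe sets in order of their number: signal (log2) in each array (upper panel) and Doxy minus No Doxy (log2; lower panel), with orange bars where both Doxy arrays were above both No Doxy arrays and blue bars where both were below. Bars of the first 26 lie mostly below 0 and 25 of the last 26 lie above 0.

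AAAS came next in the F test (adjusted p = 0.0547). The adjusted p was 0.0319 with the arrays centred and 0.0110 after quantile normalization. It was 0.0518 with dim probe sets left out and 0.141 with the replicate number as a block, and passed in neither. In AAAS, 2 probe sets moved against each other while the gene mean did not move. Probe set 3456154 read 6.54 and 6.99 without Doxy and 4.80 and 5.60 with it, a difference of -1.57. Probe set 3456151 read 7.76 and 7.33 without Doxy and 8.80 and 8.91 with it, a difference of 1.31. Simes' test, which responds to single probe sets, called 3 members, AAAS (adjusted p = 0.00797), NUP133 (0.0294) and RANBP2 (0.0363), beside 5.36% of all genes. By the F test NUP133 (adjusted p = 0.339) and RANBP2 (0.491) were far from the threshold. The NUP133 probe set concerned, 2459880, differed by 2.09 where the median of the others was 0.36, and the RANBP2 probe set, 2499194, by 1.45 where the median of the others was -0.14.

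Of the soluble receptors that carry cargo through the pore, the importins alpha, adaptors that read the nuclear localisation signal, had 3 calls. Of 6 measured, 3 rose and none fell, beside 5.67% of all genes, and all 6 differences were above 0, also after centring, with a median of 0.70. KPNA1 measured 7.07 and 7.50 without Doxy and 8.44 and 8.81 with it (1.34, SE 0.22, adjusted p = 0.0173). KPNA5 rose by 1.10 (SE 0.21, adjusted p = 0.0256) and KPNA6 by 0.83 (SE 0.20, adjusted p = 0.0446). KPNA2 (0.45), KPNA3 (0.58) and KPNA4 (0.26) did not pass.

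Of 11 importins beta, the receptors that touch the channel, 0 rose and 1 fell, beside 5.67% and 1.7% of all genes: IPO5 read 8.85 and 8.78 without Doxy and 7.88 and 7.64 with it (-1.05, SE 0.18, adjusted p = 0.0188). Of 8 exportins, 0 rose and 1 fell, beside the same 5.67% and 1.7%. It was RANBP17, which fell from 4.82 and 4.82 to 3.56 and 3.85 (-1.11, SE 0.18, adjusted p = 0.0173). The helicase DDX19B, the 1 call among 11 other partners of the pore and of Ran (beside 5.67% of all genes upwards), rose from 6.71 and 6.65 to 7.54 and 8.03 (1.11, SE 0.21, adjusted p = 0.0241). Its difference was 0.64 when the gene value was the median of its probe sets. LMNA, the gene of lamins A and C, which line the envelope between pores, rose from 5.51 and 5.00 to 6.17 and 6.43 (1.05, SE 0.22, adjusted p = 0.0320) and was the only call among 14 lamina and envelope genes, again beside 5.67%. With the median of probe sets as the gene value KPNA1 still passed (adjusted p = 0.0419). KPNA5 (1.11), KPNA6 (1.03), IPO5 (-1.12), RANBP17 (-1.03) and LMNA (1.204) missed the threshold (adjusted p = 0.0662 to 0.117). The differences of these genes were within 1.5 times those above. DDX19B missed the threshold as well (0.353), with a difference that shrank from 1.11 to 0.64. Without Doxy replicate 2 none of these 7 passed (0.0574 to 0.187), with differences of 0.66 to 1.16 in the 5 that rose, -0.93 for IPO5 and -1.26 for RANBP17.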

How the data were processed

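RNA of the 4 samples was hybridised to Affymetrix Human Exon 1.0 ST arrays. The deposited log2 values were made by the authors with RMA (background correction, quantile normalization and summary of probes) for core probe sets in Expression Console, with no version named in the sources used here. Their gene lists came from Partek 6.6 and were not used. Quantile normalization equalises arrays before summary, so differences are relative to the rest of an array.

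Of 287329 probe sets, 261273 had exactly 1 symbol in the platform annotation, 9155 had several and 16901 none. Symbols were updated through RefSeq gene tables (14546 current, 2276 updated, 119 kept as listed). Probe sets of a gene were averaged. Doxy and No Doxy were compared with limma 3.58.1 in R 4.3.3 (lmFit, eBayes, diffSplice; 2 residual degrees of freedom), with Benjamini-Hochberg adjustment over all 16634 genes and a threshold of 0.05. The code was tested on simulated data. The number of arrays limits the precision. No batch is named in the labels. The members and lists were chosen with earlier results of these data known. Every measured member could be named, with all 4 values for called members and for the member with the smallest p in each pore part; values of NUP107, NUP42, NUP133, NUP35, NDC1 and RAN were added after they were seen.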

Additional observations from a re-analysis of the deposited data

How the results depend on the processing

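The count of nuclear pore genes that rose (1) became 0 with the median of probe sets, with Tukey's median polish, with dim probe sets left out or with 1 probe set enough for a gene value, 2 with at least 5 probe sets and 3 with the replicate number as a block. The count that fell (1) became 0 with the median of probe sets, and 2 with at least 5 probe sets, centring, quantile normalization, a trended and robust prior or the replicate block. The count past 2-fold (2) became 1 with median polish, centring or quantile normalization. The splicing count (1) became 3 by Simes' test and 2 with centring or quantile normalization. With 1 array left out the counts ran from 0 to 1 for rises, 0 to 1 for falls, 1 to 3 past 2-fold and 0 to 3 for splicing. The causes were not tested. The median of all genes moved from 0.03 to -0.13 with centring, and the median of the members from 0.15 to -0.02 (0.01 after quantile normalization). All genes called went from 943 higher and 282 lower to 917 (5.51%) and 956 (5.75%) with centring, 892 (5.36%) and 609 (3.66%) after quantile normalization, 164 and 76 with the median of probe sets, 546 and 218 with median polish, 586 and 200 without dim probe sets, and 1763 and 658 with the replicate block. With 1 array left out they ran from 0 to 584 higher and from 0 to 96 lower. Genes called for splicing went from 409 to 892 by Simes' test, to 205 with the replicate block and to between 20 and 4013 with 1 array left out. Over all 16634 genes, equally numbered arrays deviated together only weakly (r = 0.127), so the numbers were not taken as pairs. For the nuclear pore genes alone this r was not computed. Their mean was higher in replicate 2 of both groups (7.32 and 7.40 without Doxy, 7.16 and 7.70 with it). So was the mean of the 25 genes of the G2 and M phases (6.91 and 7.23, 5.86 and 7.09). An effect shared by equally numbered arrays was not tested in these genes.

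Signs turned in 5 members with all arrays in use: NUP160 (-0.12 with the median of probe sets, -0.11 centred, -0.066 after quantile normalization), NUP153 (-0.061 centred, -0.031 after quantile normalization), SEH1L (-0.013 centred), NUP155 (-0.0092 centred) and NUP50 (-0.017 centred). With 1 array left out, signs turned in 14 members: NUP214 ran from -0.29 to 0.13, AAAS from -0.20 to 0.18, NUP160 from -0.15 to 0.26, NUP43 from -0.46 to 0.11, SEH1L from -0.14 to 0.44, AHCTF1 from -0.031 to 0.53, NUP155 from -0.26 to 0.57, NUP35 from -1.10 to 0.26, NDC1 from -0.12 to 0.93, NUP210 from -0.66 to 0.045, NUP153 from -0.10 to 0.30, NUP50 from -0.038 to 0.33, RAN from -0.18 to 0.011 and RANGAP1 from -0.67 to 0.085. The other 16 members, NUP37, NUP107, NUP88 and NUP42 among them, kept their sign under all 13 settings tried. Signal over background could not be checked for single probe sets, and dim probe sets were judged by their mean alone.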
